A study of Mus musculus with 16 samples.

Results

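Mitochondrial fatty acid oxidation and the handling of ketone bodies were followed in mouse liver through 35 genes. They were taken from the count files by gene symbol and cover the carnitine shuttle, acyl-CoA synthetases, beta-oxidation, electron transfer, ketone body enzymes and carriers, and uncoupling proteins. All 35 were found among the 55416 genes listed, and all 35 had enough counts to be tested with the 14770 genes kept. The genes were chosen by pathway, with earlier results of these data known.

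Livers of 16 wild-type C57BL/6J mice were sequenced as poly(A) RNA, in 4 groups of 4. At 8 weeks of age every mouse, controls included, received an adenovirus through the tail vein at the same number of genome copies, either the control virus (Ad-CTRL) or one overexpressing FAT10 (Ad-FAT10), a ubiquitin-like protein encoded by Ubd. 4 days after the injection the mice were gavaged with the vehicle CMC or with 1 mpk of pemafibrate (Pema), a drug that selectively activates the nuclear receptor PPARα, 18 h and 5 h before the liver was taken, and all were fasted for 5 h. Each group is named by its virus and its gavage, from Ad-CTRL CMC to Ad-FAT10 Pema. The sources used here do not give the promoter of the vectors or the liver cells that took them up, and vector load and the response to the vector cannot be told apart from FAT10.

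Library totals ran from 18663498 to 28898229 counts, and 3 counts correspond to 0.0890 to 0.176 CPM on the TMM scale used here (counting error only). Levels are CPM, counts brought to a common library size with TMM scaling, and group values are mean ± SD. Ubd was at 11.2 ± 3.05 CPM under CMC and 27.5 ± 14.4 under Pema in Ad-CTRL livers, and at 236.6 ± 116 (110.5 to 339.3) and 459.8 ± 64.3 (391.3 to 545.8) in Ad-FAT10 livers (SD, n = 4). The Ad-FAT10 groups did not overlap, so the Ubd level differs between the 2 adenovirus comparisons and within the interaction, and its part in them was not tested. Counts per gene did not separate the vector's transcripts from those of the mouse gene. The 6 hepatocyte markers summed to between 38400 and 104600 CPM in every library, with Alb the most abundant of them. A change is a log2 ratio ± SE from edgeR's quasi-likelihood test, and calls were made where the p, adjusted by Benjamini and Hochberg's method across the 14770 genes, was under 0.05.

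Long-chain fatty acids are activated to acyl-CoA on the outer mitochondrial membrane, carried inward as acylcarnitine, and shortened in the matrix by rounds of dehydrogenation, hydration, dehydrogenation and thiolysis. The electrons pass through the electron transfer flavoprotein to the respiratory chain, and in the fasting liver much of the acetyl-CoA is turned into ketone bodies, which hepatocytes export and other tissues burn. Many of these genes are known targets of PPARα, which binds DNA with RXR at direct repeats of the half-site AGGTCA spaced by a single base.

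Of the 35 genes 30 had a reference promoter entry in RefSeq (GRCm38.p6), with 32 windows of 250 bases before a start site. A strict direct repeat, AGGNCANAGGNCA on either strand, occurred in 0 of these 32 windows and in 0.338% of 32851 windows of all genes. The single half-site AGGNCA, on either strand, occurred in 21 of the 32 windows (65.6%) and in 51.3% of all windows. A match describes letters, and its absence says nothing of PPARα binding here or elsewhere. The stretches below belong to Slc22a5, which showed one of the largest drug changes, to Acadm, which also rose, to Echs1, which was not called for the drug, and to the divergent pair Hadha and Hadhb, whose start sites lie 272 bases apart and which rose together. They are printed 5′ to 3′ on the strand given, in lower case with half-sites in capitals, written as AGGNCA or, for a match on the other strand, as the reverse complement TGNCCT.
Slc22a5, chr11:53891704-53891953, minus strand, no half-site: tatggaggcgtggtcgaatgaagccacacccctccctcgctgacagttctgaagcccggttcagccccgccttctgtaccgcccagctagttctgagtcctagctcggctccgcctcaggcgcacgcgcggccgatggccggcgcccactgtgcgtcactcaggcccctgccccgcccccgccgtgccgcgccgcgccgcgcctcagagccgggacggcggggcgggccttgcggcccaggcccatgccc
Acadm, chr3:153944644-153944893, minus strand, 3 half-sites: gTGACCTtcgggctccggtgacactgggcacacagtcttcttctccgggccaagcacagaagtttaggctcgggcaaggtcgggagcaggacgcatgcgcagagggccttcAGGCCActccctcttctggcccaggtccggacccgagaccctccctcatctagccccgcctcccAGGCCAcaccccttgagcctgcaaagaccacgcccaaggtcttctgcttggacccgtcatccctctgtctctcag
Echs1, chr7:140116422-140116671, minus strand, 3 half-sites: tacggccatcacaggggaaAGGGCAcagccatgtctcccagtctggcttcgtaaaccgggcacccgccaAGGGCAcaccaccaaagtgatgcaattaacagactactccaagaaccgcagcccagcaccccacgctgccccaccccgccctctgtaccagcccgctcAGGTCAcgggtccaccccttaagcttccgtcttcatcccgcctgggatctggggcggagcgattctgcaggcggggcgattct
Hadha and Hadhb, chr5:30155003-30155230, plus strand, 1 half-site in the stretch that both windows cover: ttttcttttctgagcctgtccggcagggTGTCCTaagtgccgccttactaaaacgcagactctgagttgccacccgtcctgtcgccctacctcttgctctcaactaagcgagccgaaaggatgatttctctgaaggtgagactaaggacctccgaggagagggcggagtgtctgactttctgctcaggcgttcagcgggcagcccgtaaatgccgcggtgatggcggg
The called Slc22a5 held no half-site in its window, while the called Acadm and the uncalled Echs1 each held 3. The stretch shared by Hadha and Hadhb, both called, held 1. Whether half-sites go with the drug calls was not tested.

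With pemafibrate most of the pathway rose, in both adenoviruses. In Ad-CTRL livers 29 of the 35 genes rose and 2 fell, where 30.6% of all genes tested were called (16.2% higher and 14.4% lower). In Ad-FAT10 livers 27 rose and 2 fell, against 25.4% of all genes (12.9% higher and 12.5% lower). The median log2 change was 1.08 and 0.97, against -0.01 over all genes in both comparisons. Ucp3 and Cpt1b passed the filter on low counts only through the Pema groups, and over the other 33 genes 27 rose and 2 fell with a median of 0.87 in Ad-CTRL, and 25 rose and 2 fell with a median of 0.96 in Ad-FAT10 livers. Changes of at least 2-fold were called for 19 genes with Ad-CTRL and 17 with Ad-FAT10, against 7.97% of all genes (4.08% higher and 3.89% lower) and 6.10% (3.11% higher and 2.99% lower). The groups did not overlap for 31 and 27 of the 35 genes, against 30.6% and 25.4% of all genes. These 2 comparisons share no library, and 27 genes rose in both while 2 fell in both, a count not made over all genes. The counts of 2-fold changes, of groups without overlap and of rises in both include Ucp3 and Cpt1b, whose difference was set by the filter. With library totals alone 39.5% of the calls over all genes in Ad-CTRL livers were higher, in place of 52.8% with TMM.

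**Figure D1:**
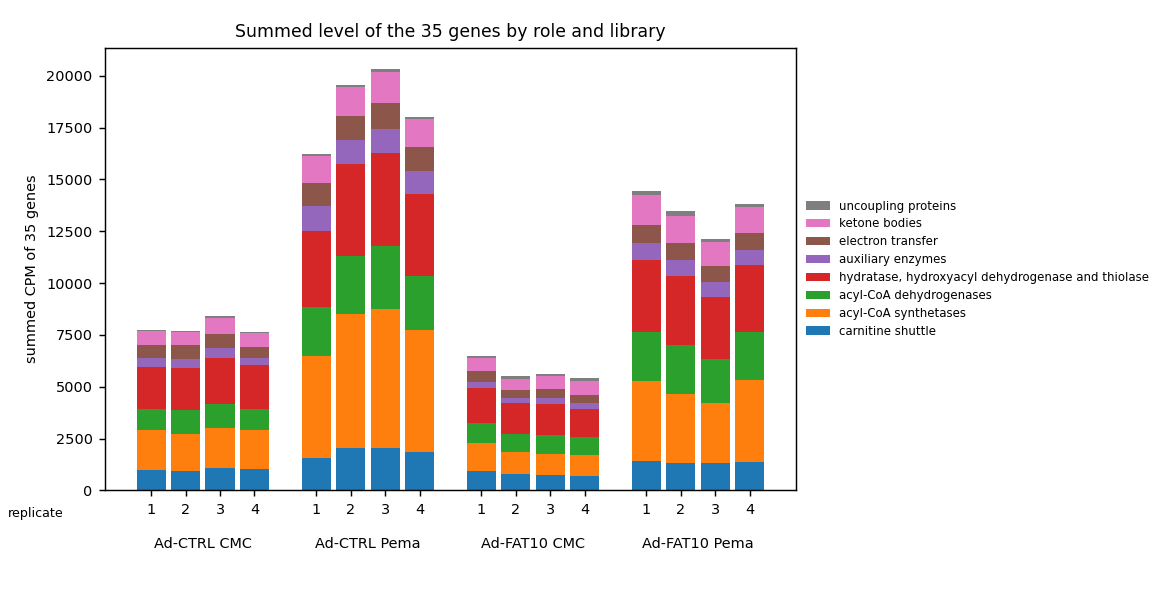
Summed level of the 35 genes in each of the 16 libraries, in CPM after TMM scaling, stacked by role (n = 4 mice per group, 1 bar per library). The Pema libraries lie between 12139 and 20328 CPM and the CMC libraries between 5404 and 8393 CPM.

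Summed over the 35 genes, the level went with the drug from 7872 ± 350 to 18535 ± 1810 CPM in Ad-CTRL livers and from 5749 ± 492 to 13468 ± 979 CPM in Ad-FAT10 livers (SD, n = 4). As a share of all counts these genes took 0.723% and 1.60% in Ad-CTRL and 0.646% and 1.50% in Ad-FAT10, CMC before Pema. The plot of summed levels shows that every Pema library lay above every CMC library. The acyl-CoA synthetases, most of it Acsl1, made the largest step among the roles, from 1897 ± 71.4 to 6007 ± 808 CPM in Ad-CTRL and from 1124 ± 166 to 3498 ± 503 CPM in Ad-FAT10. Of the 35 genes 25, Ucp3 and Cpt1b among them, had their highest group mean in Ad-CTRL Pema, and 26 had their lowest in Ad-FAT10 CMC. The order of group means was not counted over all genes. Mitochondrially encoded genes took 7.28% ± 1.20 and 6.23% ± 0.781 in Ad-CTRL and 5.15% ± 0.503 and 4.46% ± 1.16 in Ad-FAT10 of all counts, CMC before Pema.

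**Figure D2:**
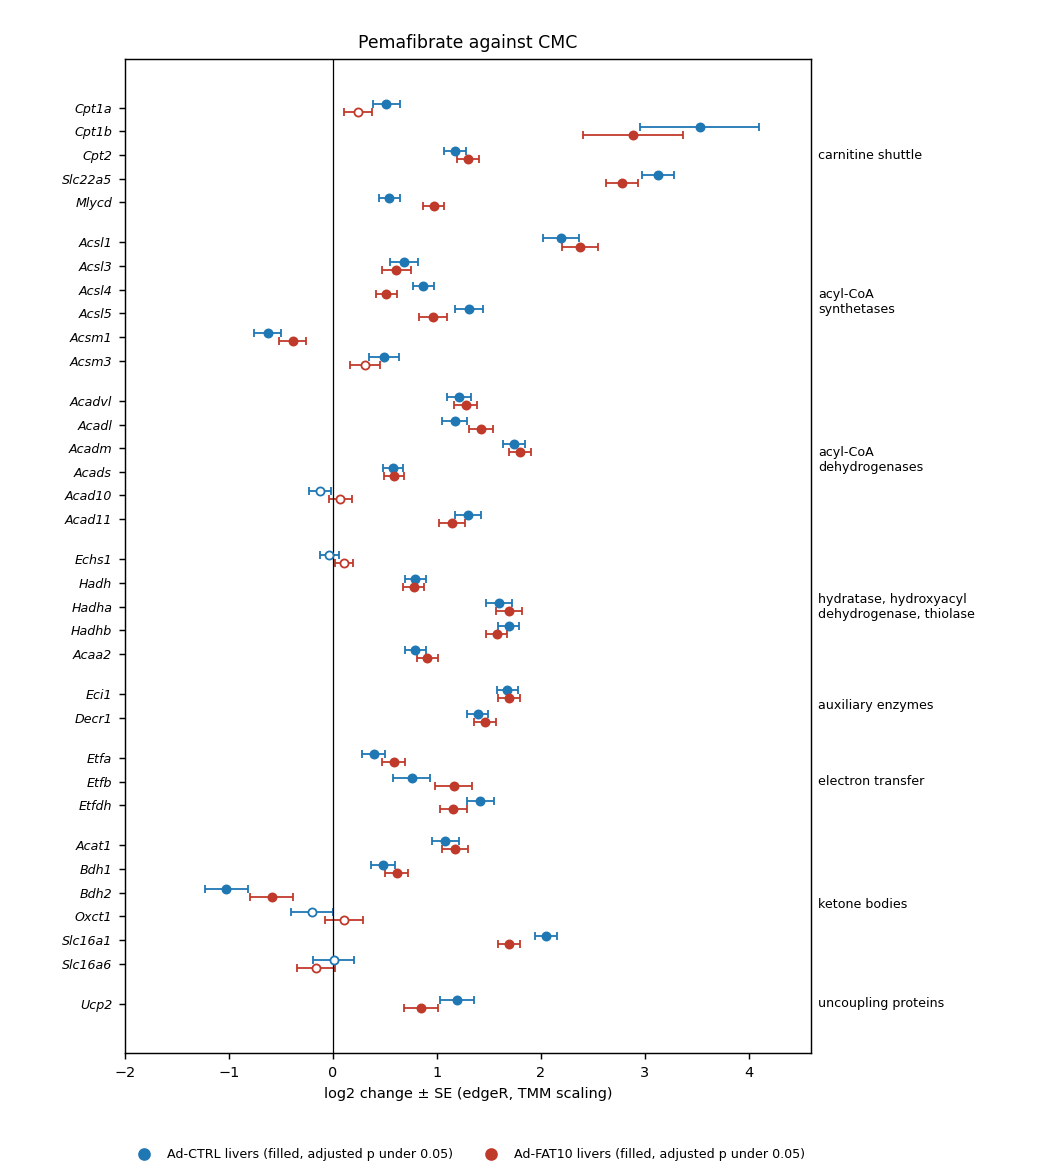
Log2 change with pemafibrate against CMC ± SE for 34 of the genes, by role, separately for Ad-CTRL and Ad-FAT10 (n = 4 mice per group, filled points called at an adjusted p under 0.05). Slc22a5 and Cpt1b lie farthest to the right, and Bdh2 and Acsm1 are the 2 genes called to the left of 0 in both. Cpt1b passed the filter on low counts only through the Pema groups, so its place is a description. Ucp3, with 1 and 2 counts in the CMC groups, is left out.

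In the carnitine shuttle all 5 genes rose in Ad-CTRL livers and 4 in Ad-FAT10 livers. Both counts include Cpt1b, which passed the filter on low counts only through the Pema groups. Slc22a5 encodes the plasma membrane importer of carnitine. Its level was 50.8, 45.5, 38.5 and 32.8 CPM in Ad-CTRL CMC, 323, 363, 412 and 369 CPM in Ad-CTRL Pema, 40.5, 25.9, 37.9 and 28.9 CPM in Ad-FAT10 CMC and 243, 218, 224 and 231 CPM in Ad-FAT10 Pema. Every Pema library lay several times above every CMC library, and the change was 3.13 ± 0.15 in Ad-CTRL (adjusted p = 1.11e-10) and 2.78 ± 0.15 in Ad-FAT10 livers (adjusted p = 5.47e-10). Cpt2, which reforms acyl-CoA on the matrix side, rose by 1.17 ± 0.11 and 1.30 ± 0.11.

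Cpt1a, the liver form of the enzyme that commits acyl groups to the shuttle and that malonyl-CoA inhibits, had smaller changes. It stood at 596, 568, 694 and 647 CPM in Ad-CTRL CMC, 708, 989.8, 976 and 909 CPM in Ad-CTRL Pema, 669, 541, 456 and 458 CPM in Ad-FAT10 CMC and 633, 586, 651 and 645 CPM in Ad-FAT10 Pema. The Ad-CTRL Pema libraries all lay above the CMC libraries, whereas in Ad-FAT10 livers the highest CMC library, replicate 1, lay above all 4 Pema libraries. The change was 0.52 ± 0.13 in Ad-CTRL livers (adjusted p = 0.00604) and 0.24 ± 0.13 in Ad-FAT10 livers, where it was not called (adjusted p = 0.2). Without that Ad-FAT10 CMC library it was called there, at 0.37 (adjusted p = 0.0416).

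Mlycd encodes malonyl-CoA decarboxylase, which removes the inhibitor of Cpt1a. It stood at 154, 144, 151 and 162 CPM in Ad-CTRL CMC, 221, 238, 216 and 215 CPM in Ad-CTRL Pema, 93.9, 93.4, 86.8 and 73.4 CPM in Ad-FAT10 CMC and 203, 156, 153 and 169 CPM in Ad-FAT10 Pema. Pema and CMC libraries did not overlap in either adenovirus. Mlycd rose by 0.55 ± 0.10 in Ad-CTRL and by 0.97 ± 0.10 in Ad-FAT10 livers (adjusted p = 0.000405 and 1.38e-06). Acacb, which makes malonyl-CoA at the mitochondrion and was singled out after its values were seen, rose as well, by 1.72 ± 0.17 and 1.25 ± 0.17 (adjusted p = 4.71e-07 and 2.69e-05).

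Cpt1b, the muscle form of the same enzyme, was close to the limit of detection without the drug. It stood at 0.176, 0.0924, 0.0462 and 0.206 CPM in Ad-CTRL CMC, 1.66, 0.855, 1.50 and 1.98 CPM in Ad-CTRL Pema, 0, 0.0765, 0.397 and 0.275 CPM in Ad-FAT10 CMC and 1.31, 1.14, 1.13 and 2.37 CPM in Ad-FAT10 Pema. All Pema libraries lay above all CMC libraries of the same adenovirus. It went from 10 to 123 counts over the 4 libraries of a group in Ad-CTRL, a ratio of 12.2 with a 95% counting interval of 6.39 to 26.0, and from 21 to 175 counts in Ad-FAT10 livers, a ratio of 7.49 (4.75 to 12.4). In the annotation used here, 81.4% of its exon bases are shared with Gm44502 on the same strand, so reads can have been split or dropped in counting. The skeletal muscle markers Ckm and Mb were at 0 in all libraries apart from a single Ckm count in Ad-FAT10 CMC replicate 4, and all 6 muscle markers summed to between 0.0441 and 0.160 CPM in Ad-CTRL Pema and between 0.463 and 1.37 CPM in Ad-FAT10 Pema, most of the latter Acta1, which rose with the drug in Ad-FAT10 livers. The 6 adipocyte markers summed to 7.71 CPM in Ad-FAT10 Pema replicate 4, the highest of all libraries, where Cpt1b was highest too. In Ad-CTRL livers their sum was highest in Pema replicate 3, at 2.59 CPM, where Cpt1b was below Pema replicates 1 and 4. Ad-CTRL CMC replicate 3 followed at 1.895 CPM, with the lowest Cpt1b of its group.

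Among the acyl-CoA synthetases, which prime fatty acids with coenzyme A, the long-chain genes rose and the medium-chain genes divided. Acsl1, the main long-chain synthetase of liver, stood at 1162, 1056, 1044 and 1015 CPM in Ad-CTRL CMC, 3963, 5258, 5516 and 4861 CPM in Ad-CTRL Pema, 719.7, 482, 464 and 436 CPM in Ad-FAT10 CMC and 3156, 2472, 2125 and 3173 CPM in Ad-FAT10 Pema. Even the lowest Pema library, in Ad-FAT10 livers, lay above every CMC library of both adenoviruses. Acsl1 rose by 2.20 ± 0.18 in Ad-CTRL and by 2.38 ± 0.18 in Ad-FAT10 livers (adjusted p = 3.37e-08 and 1.9e-08). Acsl5, a mitochondrial and microsomal long-chain synthetase, rose by 1.31 ± 0.14 and 0.96 ± 0.13, and Acsl3, found on the endoplasmic reticulum and lipid droplets, by 0.68 ± 0.14 and 0.61 ± 0.14. The ratio of Acsl1 to Acsl5 CPM, not adjusted for length, went from 4.68 ± 0.834 to 8.53 ± 0.753 with the drug in Ad-CTRL and from 2.84 ± 0.601 to 7.76 ± 2.26 in Ad-FAT10 livers (SD, n = 4).

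Acsl4, which prefers arachidonic acid, stood at 65.5, 60.8, 62.5 and 51.9 CPM in Ad-CTRL CMC, 107, 105, 119.8 and 109 CPM in Ad-CTRL Pema, 78.3, 84.5, 74.8 and 65.0 CPM in Ad-FAT10 CMC and 93.4, 119.8, 109.7 and 109.6 CPM in Ad-FAT10 Pema. All Pema libraries exceeded the CMC libraries of their adenovirus, with changes of 0.87 ± 0.10 and 0.52 ± 0.10 (adjusted p = 2.96e-06 and 0.000846).

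Acsm1, a medium-chain synthetase, went the other way. Its level was 412, 391, 490.3 and 486 CPM in Ad-CTRL CMC, 245, 369, 279 and 259 CPM in Ad-CTRL Pema, 289, 293, 272 and 229.7 CPM in Ad-FAT10 CMC and 206, 236, 186 and 200.4 CPM in Ad-FAT10 Pema. It fell by 0.63 ± 0.13 in Ad-CTRL livers without overlap (adjusted p = 0.00121). In Ad-FAT10 livers it fell by 0.39 ± 0.13 with overlapping groups (adjusted p = 0.0357), which 6 of the 16 fits with a library left out did not call, at adjusted p up to 0.113 without Ad-FAT10 CMC replicate 2. Its relative Acsm3 stood at 62.4, 66.0, 70.0 and 62.1 CPM in Ad-CTRL CMC, 83.9, 91.3, 98.0 and 92.6 CPM in Ad-CTRL Pema, 52.6, 44.3, 40.4 and 37.0 CPM in Ad-FAT10 CMC and 69.3, 47.0, 38.3 and 61.3 CPM in Ad-FAT10 Pema. The 2 groups of Ad-CTRL livers did not overlap for Acsm3, and those of Ad-FAT10 livers did. In Ad-CTRL livers Acsm3 rose by 0.49 ± 0.14 (adjusted p = 0.0147), and it was not called in Ad-FAT10 livers at 0.31 ± 0.14 (adjusted p = 0.132), but was called there without Ad-FAT10 Pema replicate 3, at 0.44 (adjusted p = 0.0149).

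**Figure D3:**
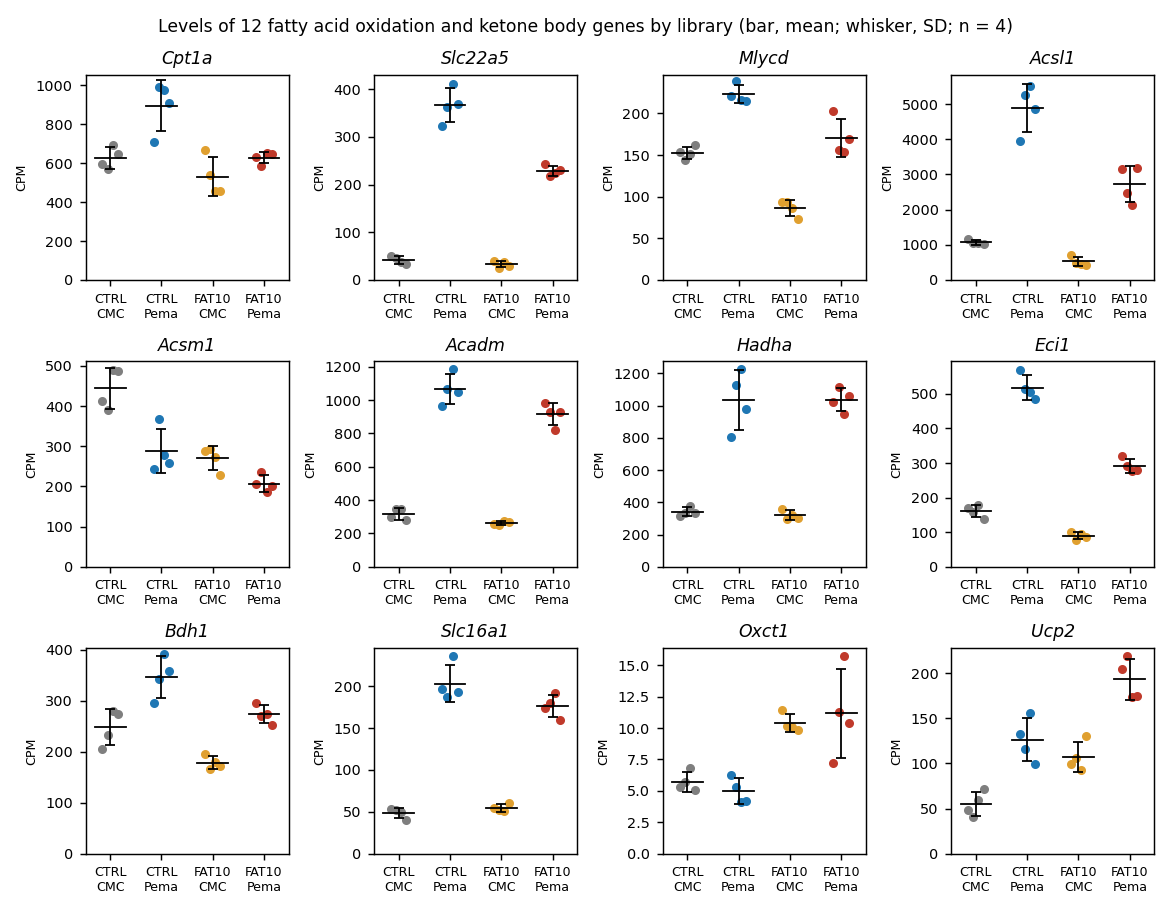
CPM after TMM scaling of 12 of the genes in each library (points), with mean and SD per group (n = 4 mice). Slc22a5, Acadm, Hadha, Slc16a1, Acsl1 and Eci1 separate by treatment, and Oxct1 by adenovirus. Acsl1 and Eci1 also separate by adenovirus within each treatment, Slc22a5 under pemafibrate only and Acadm under CMC only. Mlycd separates by treatment within each adenovirus and by adenovirus within each treatment.

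The acyl-CoA dehydrogenases take the first step of each round, each for a range of chain lengths. Acadm, the medium-chain enzyme, stood at 299.6, 348, 346 and 279 CPM in Ad-CTRL CMC, 966, 1066, 1186 and 1049 CPM in Ad-CTRL Pema, 259, 249, 273 and 271 CPM in Ad-FAT10 CMC and 984, 930.3, 822 and 931 CPM in Ad-FAT10 Pema. Every Pema library lay far above every CMC library of both adenoviruses, and it rose by 1.75 ± 0.10 with Ad-CTRL and 1.80 ± 0.10 with Ad-FAT10 (adjusted p = 8.73e-10 and 1.26e-09). The very-long-chain and long-chain enzymes rose too, Acadvl by 1.21 ± 0.11 and 1.28 ± 0.11 and Acadl by 1.17 ± 0.12 and 1.42 ± 0.12. Acads, the short-chain enzyme, rose least of these, by 0.58 ± 0.09 and 0.59 ± 0.09. The Acadm to Acads ratio of CPM went from 1.78 ± 0.245 to 4.00 ± 0.275 in Ad-CTRL and from 2.05 ± 0.213 to 4.73 ± 0.214 in Ad-FAT10 livers. Of the 2 less studied members of the family, Acad11 rose by 1.30 ± 0.12 and 1.14 ± 0.12, while Acad10 was not called at -0.12 ± 0.11 and 0.07 ± 0.11 (adjusted p = 0.437 and 0.696).

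The next 3 steps of a round are carried by the trifunctional protein for long chains and by separate matrix enzymes for shorter ones. Hadha, the alpha subunit of the trifunctional protein, stood at 316, 334, 380.1 and 337 CPM in Ad-CTRL CMC, 807, 1131, 1228 and 978 CPM in Ad-CTRL Pema, 361, 295, 323 and 303 CPM in Ad-FAT10 CMC and 1023, 1117, 951 and 1063 CPM in Ad-FAT10 Pema. The lowest Pema library of either adenovirus lay well above the highest CMC library, and the change was 1.60 ± 0.12 and 1.70 ± 0.13 (adjusted p = 2.64e-08 and 1.79e-08). Its partner Hadhb, transcribed away from it across the stretch printed above, rose by 1.69 ± 0.10 and 1.58 ± 0.10. The ratio of Hadha to Hadhb CPM ran from 1.77 to 2.56 over the 16 libraries, with group means of 2.16, 2.01, 2.27 and 2.47, CMC before Pema and Ad-CTRL before Ad-FAT10. Among the matrix enzymes, the thiolase Acaa2 rose by 0.80 ± 0.10 and 0.91 ± 0.10, and Hadh, the short-chain hydroxyacyl-CoA dehydrogenase, by 0.79 ± 0.10 and 0.78 ± 0.10. Echs1, the short-chain enoyl-CoA hydratase, stood at 244 ± 10.9, 239 ± 18.4, 164 ± 13.6 and 176 ± 11.1 CPM in the same group order (SD, n = 4). It was not called for the drug at -0.03 ± 0.09 and 0.10 ± 0.09 (adjusted p = 0.83 and 0.436), with 95% intervals of -0.22 to 0.15 and -0.08 to 0.29.

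Both auxiliary enzymes, which make unsaturated fatty acids fit for oxidation, rose in both adenoviruses. Eci1, the enoyl-CoA isomerase, stood at 170.5, 158, 179 and 139 CPM in Ad-CTRL CMC, 569, 513, 505 and 485 CPM in Ad-CTRL Pema, 101, 78.3, 94.4 and 87.2 CPM in Ad-FAT10 CMC and 321, 291, 278 and 279 CPM in Ad-FAT10 Pema. Pema libraries lay above CMC libraries in each adenovirus, and each Ad-FAT10 group lay below its Ad-CTRL counterpart. The drug change was 1.68 ± 0.10 and 1.69 ± 0.10 (adjusted p = 1.33e-09 and 2.18e-09). Decr1, the dienoyl-CoA reductase, rose by 1.39 ± 0.10 and 1.46 ± 0.10.

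Electrons from the dehydrogenases are collected by the flavoprotein subunits Etfa and Etfb and passed to ubiquinone by Etfdh. Etfdh stood at 247, 259, 283 and 215 CPM in Ad-CTRL CMC, 573, 702, 761 and 649 CPM in Ad-CTRL Pema, 239, 173, 179 and 159.6 CPM in Ad-FAT10 CMC and 388, 428, 422 and 439 CPM in Ad-FAT10 Pema. It rose by 1.42 ± 0.13 and 1.16 ± 0.13 with no overlap (adjusted p = 1.61e-07 and 3.03e-06). Etfa rose by 0.39 ± 0.11 and 0.58 ± 0.11, so the ratio of Etfa to Etfdh CPM went from 1.48 ± 0.112 to 0.740 ± 0.139 in Ad-CTRL and from 1.38 ± 0.173 to 0.916 ± 0.154 in Ad-FAT10 livers. Etfb rose by 0.76 ± 0.18 and 1.16 ± 0.18, but from 2.52 to 11.3 CPM over the 16 libraries it was far below its partner. In the annotation used here 58.2% of its exon bases are shared with Gm45233 and Mir7051 on the same strand, so its counts can miss reads and its level says little beside that of Etfa.

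Of the 6 ketone body genes 3 rose and 1 fell in both adenoviruses. Acat1, the mitochondrial thiolase that makes acetoacetyl-CoA, rose by 1.08 ± 0.13 and 1.17 ± 0.13. Bdh1, which interconverts acetoacetate and beta-hydroxybutyrate, stood at 206, 232, 279.9 and 274 CPM in Ad-CTRL CMC, 295, 342, 392 and 359 CPM in Ad-CTRL Pema, 196, 167, 179.6 and 173 CPM in Ad-FAT10 CMC and 296, 270.4, 274 and 253 CPM in Ad-FAT10 Pema. Pema libraries lay above CMC libraries in each adenovirus, and the rise was 0.48 ± 0.11 and 0.61 ± 0.11 (adjusted p = 0.00265 and 0.000503). Slc16a1, a proton-linked carrier of ketone bodies and lactate, stood at 53.9, 51.7, 50.1 and 40.2 CPM in Ad-CTRL CMC, 196, 187, 236 and 193 CPM in Ad-CTRL Pema, 54.5, 51.7, 50.5 and 61.1 CPM in Ad-FAT10 CMC and 174, 179.8, 192 and 159.9 CPM in Ad-FAT10 Pema. The lowest Pema library of either adenovirus lay well above the highest CMC library, and the change was 2.05 ± 0.11 and 1.69 ± 0.11 (adjusted p = 2.14e-10 and 2.51e-09).

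Bdh2, a cytosolic dehydrogenase related to Bdh1, fell. Its level was 13.1, 14.2, 11.9 and 14.5 CPM in Ad-CTRL CMC, 7.88, 6.89, 6.04 and 5.60 CPM in Ad-CTRL Pema, 6.56, 7.84, 7.30 and 7.28 CPM in Ad-FAT10 CMC and 8.03, 3.01, 4.09 and 4.23 CPM in Ad-FAT10 Pema. The 2 Ad-CTRL groups did not overlap and it fell by 1.03 ± 0.21 (adjusted p = 0.000944). In Ad-FAT10 livers it fell by 0.59 ± 0.21 (adjusted p = 0.0461) with overlap, since Pema replicate 1 lay above all 4 CMC libraries. Without that library the change was -0.93 (adjusted p = 0.00014), whereas leaving out any of 14 other libraries lost the call, at adjusted p from 0.0516 to 0.15. Oxct1, the transferase with which other tissues use ketone bodies and which hepatocytes hardly express, stood at 5.28, 5.68, 6.84 and 5.04 CPM in Ad-CTRL CMC, 6.28, 5.34, 4.14 and 4.19 CPM in Ad-CTRL Pema, 11.4, 10.2, 10.0 and 9.85 CPM in Ad-FAT10 CMC and 7.22, 11.3, 15.8 and 10.4 CPM in Ad-FAT10 Pema. Slc16a6, known in zebrafish as a ketone body exporter of the liver, stood at 7.39, 4.67, 5.27 and 5.76 CPM in Ad-CTRL CMC, 4.51, 6.20, 5.99 and 6.39 CPM in Ad-CTRL Pema, 7.93, 8.83, 8.78 and 14.0 CPM in Ad-FAT10 CMC and 9.26, 7.59, 10.7 and 7.90 CPM in Ad-FAT10 Pema. Treatment groups overlapped for both genes, and neither was called for the drug, Oxct1 at -0.20 ± 0.20 and 0.11 ± 0.18 and Slc16a6 at 0.01 ± 0.19 and -0.16 ± 0.18 (adjusted p = 0.5, 0.717, 0.983 and 0.57).

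The uncoupling proteins are carriers of the inner mitochondrial membrane, and both were higher with the drug. Ucp2, which many cell types express, stood at 48.9, 40.8, 59.7 and 71.2 CPM in Ad-CTRL CMC, 133, 116, 156 and 99.9 CPM in Ad-CTRL Pema, 99.4, 106, 92.5 and 131 CPM in Ad-FAT10 CMC and 205, 219, 174 and 175 CPM in Ad-FAT10 Pema. It rose by 1.20 ± 0.17 and 0.85 ± 0.16 without overlap (adjusted p = 2.43e-05 and 0.000826). Ucp3, known from skeletal muscle and brown fat, stood at 0.0587, 0, 0 and 0 CPM in Ad-CTRL CMC, 0.934, 0.267, 2.19 and 0.749 CPM in Ad-CTRL Pema, 0, 0.0382, 0 and 0.0343 CPM in Ad-FAT10 CMC and 0.926, 0.381, 0.445 and 0.488 CPM in Ad-FAT10 Pema. Only 1 count fell in the 4 Ad-CTRL CMC libraries and 84 in the Pema libraries, a ratio of 83.0 with a 95% counting interval of 14.5 to 3320. In Ad-FAT10 livers the counts were 2 and 64, a ratio of 28.8 (7.64 to 243). Ucp3 and Cpt1b passed the filter on low counts through the Pema groups alone, so a difference with the drug was set by the filter, and their values are a description. The muscle marker sums stand with Cpt1b above. Ad-CTRL Pema replicate 3, the highest for Ucp3, also had the highest adipocyte marker sum of the Ad-CTRL libraries, at 2.59 CPM. The sum was higher, at 7.71 CPM, in Ad-FAT10 Pema replicate 4, where Ucp3 was at 0.488 CPM. It was 1.895 CPM in Ad-CTRL CMC replicate 3, where Ucp3 was at 0. The part of other tissue in these counts was not tested.

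Per kilobase of annotated exon in Ad-CTRL CMC, Acaa2 was the highest of the 35 at 639.6 ± 22.2 CPM per kb (SD, n = 4). Acsm1 at 203.9 ± 23.4 and Etfa at 203.0 ± 31.0 CPM per kb followed and did not differ beyond their spread, nor did the next 2, Acsl1 at 102.0 ± 6.11 and Acat1 at 100.3 ± 9.64 CPM per kb. Cpt1a, Acadm, Acads, Hadh and Eci1 lay between 76.0 and 82.0 CPM per kb, with SDs from 5.00 (Acads) to 8.79 (Acadm), and were not ranked. At the other end stood Ucp3, Cpt1b, Slc16a6 at 1.18 ± 0.239 and Oxct1 at 1.54 ± 0.216 CPM per kb. Exon lengths were summed over all annotated transcripts and can be too long where retained introns are annotated. Under pemafibrate Acsl1 reached 467 and Acadm 273 CPM per kb in Ad-CTRL livers, behind Acaa2 at 1109.7 CPM per kb.

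The adenovirus moved the pathway less, and mostly downward. Under CMC, 20 of the 35 genes were lower and 4 higher in Ad-FAT10 than in Ad-CTRL livers, where 42.6% of all genes tested were called (22.5% higher and 20.2% lower). Under pemafibrate 19 were lower and 3 higher, against 41.7% of all genes (21.2% higher and 20.5% lower). The median log2 change of the 35 was -0.35 and -0.37, against -0.01 and -0.02 over all genes. Groups did not overlap for 21 genes in each comparison, against 38.2% and 36.9% of all genes. Only Acsl1 under CMC and Oxct1 under pemafibrate were called at 2-fold or more, against 11.5% of all genes (8.21% higher and 3.33% lower) and 11.2% (8.41% higher and 2.79% lower). These 2 comparisons share no library, and 15 genes were lower and 3 higher in both. The share of all genes called in both was not counted, so these counts are a description.

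Each of these adenovirus changes is relative to a scaling that differed between the viruses. TMM factors ran from 0.831 to 0.929 in Ad-CTRL and from 1.06 to 1.19 in Ad-FAT10 libraries. With library totals alone, an alternative chosen after seeing the data, the median of all genes moved by 0.29 under CMC and 0.36 under pemafibrate, and 85.7% and 89.7% of all calls were then higher in place of 52.7% and 50.9%. Of the 35 genes 8 were then lower and 6 higher under CMC, and 5 lower and 8 higher under pemafibrate. Their median relative to that of all genes was -0.34 and -0.35, and with TMM -0.34 and -0.35. A change of scaling moves all genes by about the same amount, so this likeness was fixed in advance and says nothing of either scaling. Genes lower under CMC with both scalings were Mlycd, Acsl1, Acsm1, Acad10, Echs1, Acaa2, Eci1 and Bdh2, and those under pemafibrate Acsl1, Acsm3, Acaa2, Eci1 and Etfdh.

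**Figure D4:**
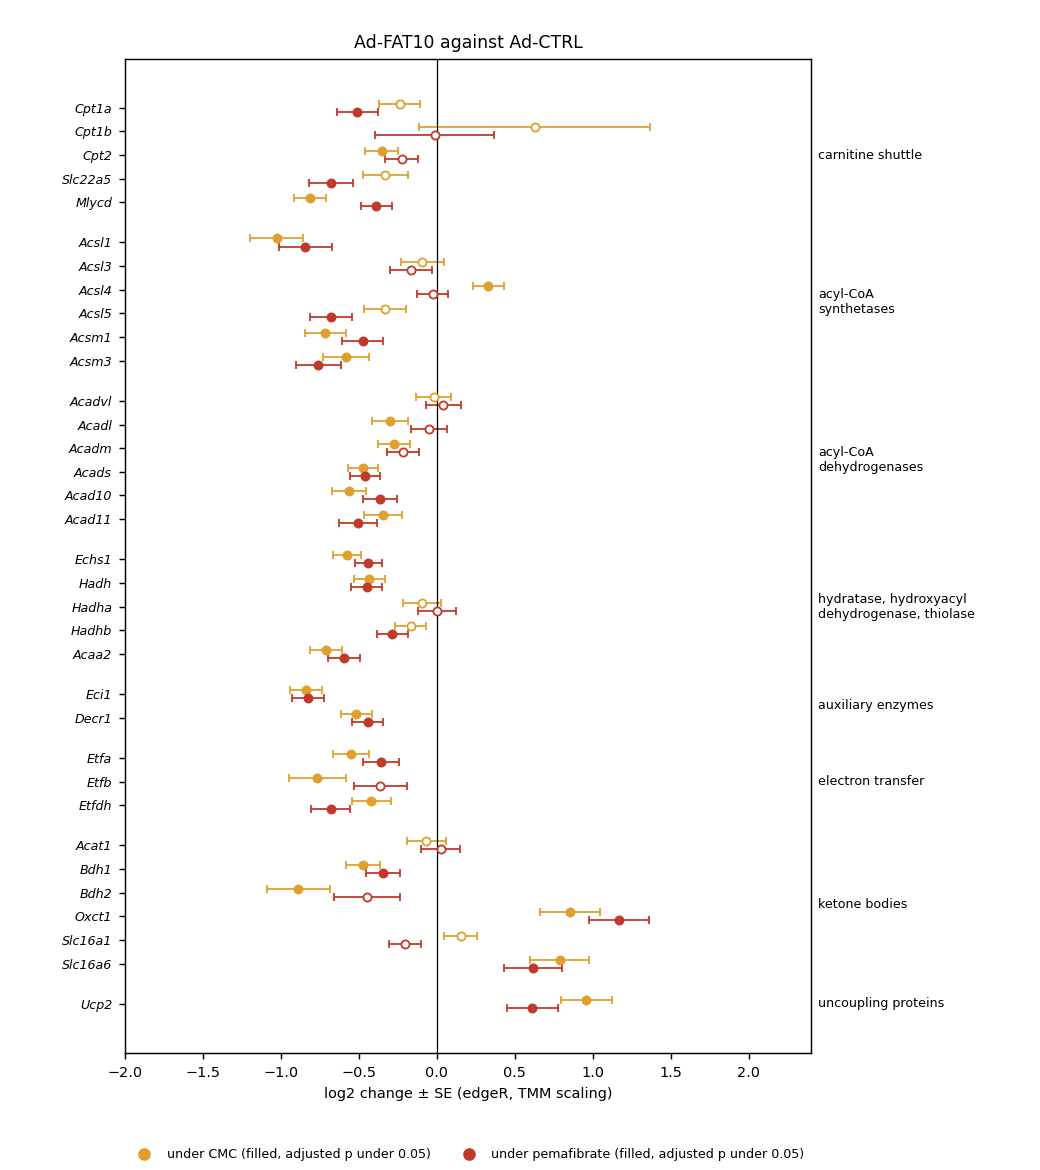
Log2 change in Ad-FAT10 against Ad-CTRL livers ± SE for 34 of the genes, by role, under CMC and under pemafibrate (TMM scaling, n = 4 mice per group, filled points called at an adjusted p under 0.05). Acsl1 and Eci1 lie to the left of 0 and Oxct1, Slc16a6 and Ucp2 to the right in both treatments, also with library totals alone, which moves the points to the right by about the 0.29 and 0.36 seen for all genes, so that Hadhb, to the left of 0 here, lies to its right. Ucp3 is left out, as both CMC groups are at or below 3 counts in all.

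Among the called genes Acsl1 had the largest estimated fall with Ad-FAT10 in both treatments, within the SE of Eci1 under pemafibrate, of 1.03 ± 0.17 under CMC and 0.84 ± 0.17 under pemafibrate (adjusted p = 0.000142 and 0.000741), and in the values above no Ad-FAT10 library reached the lowest Ad-CTRL library of its treatment. Acsm1 fell by 0.71 ± 0.13 and 0.47 ± 0.13 and Acsm3 by 0.58 ± 0.15 and 0.76 ± 0.14, the first not called under pemafibrate and the second not called under CMC with library totals alone. Acsl5 fell by 0.68 ± 0.13 under pemafibrate (adjusted p = 0.000676) and was at -0.33 ± 0.13 under CMC (adjusted p = 0.055, but 0.0325 without Ad-CTRL CMC replicate 2, 0.0481 without Ad-CTRL Pema replicate 1 and 0.0435 without Ad-FAT10 Pema replicate 1), with no called interaction (adjusted p = 0.525). With library totals alone Acsl5 was called in neither treatment. Acsl4 was higher under CMC by 0.33 ± 0.10 (adjusted p = 0.0127, and 0.076 without Ad-FAT10 CMC replicate 2). Under pemafibrate Acsl4 was at -0.03 ± 0.10 (adjusted p = 0.856), which turned to a called rise of 0.34 with library totals alone.

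In the carnitine shuttle Mlycd fell by 0.81 ± 0.10 under CMC and 0.39 ± 0.10 under pemafibrate (adjusted p = 9.8e-06 and 0.00468), the second not called with library totals alone. Cpt1a was lower under pemafibrate by 0.51 ± 0.13 (adjusted p = 0.00495). Under CMC it was at -0.24 ± 0.13 (adjusted p = 0.156), and -0.37 without Ad-FAT10 CMC replicate 1 (adjusted p = 0.0262). Slc22a5 was lower under pemafibrate by 0.68 ± 0.14 (adjusted p = 0.000978) and was at -0.33 ± 0.14 under CMC (adjusted p = 0.072, but 0.0233 without Ad-CTRL CMC replicate 4 and 0.0253 without Ad-FAT10 CMC replicate 1). Neither Cpt1a nor Slc22a5 was called under pemafibrate with library totals alone. Cpt2 fell by 0.35 ± 0.11 under CMC (adjusted p = 0.0126) and was at -0.22 ± 0.11 under pemafibrate (adjusted p = 0.0961), though called at 0.0267 when Ad-CTRL Pema replicate 1 was left out. With library totals alone Cpt2 was called in neither treatment.

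Acadvl, Hadha and Acat1 were not called between the viruses with TMM scaling. Acadvl was at -0.02 ± 0.11 and 0.04 ± 0.11, Hadha at -0.09 ± 0.12 and 0.00 ± 0.12 and Acat1 at -0.07 ± 0.13 and 0.02 ± 0.13 (CMC before pemafibrate). With library totals alone these 3 genes were called higher under pemafibrate, by 0.41, 0.37 and 0.38, and Acadvl under CMC as well, by 0.27. Hadhb fell under pemafibrate by 0.28 ± 0.10 (adjusted p = 0.0266), a call lost without Ad-CTRL Pema replicate 3 (adjusted p = 0.101) or Ad-FAT10 Pema replicate 3 (0.0844) or 4 (0.0581) and turned to 0.08 with library totals alone. Acadl and Acadm fell under CMC by 0.30 ± 0.12 and 0.27 ± 0.10, and for each, 9 of the 16 fits with a library left out made no call (adjusted p up to 0.117 and 0.119, both without Ad-CTRL CMC replicate 2), and with library totals alone Acadm turned to 0.02. Under pemafibrate neither was called, at -0.05 ± 0.11 and -0.22 ± 0.10 (adjusted p = 0.765 and 0.0929). With library totals alone neither was called under CMC, and Acadl was called higher under pemafibrate.

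Eci1, Acaa2, Echs1, Decr1, Acads, Hadh, Acad10, Acad11, Etfa and Etfdh were lower in both treatments with TMM scaling, and Acad10 turned to 0.0051 under pemafibrate with library totals alone. Eci1 fell by 0.84 ± 0.10 and 0.83 ± 0.10, Acaa2 by 0.71 ± 0.10 and 0.59 ± 0.10, Echs1 by 0.57 ± 0.09 and 0.44 ± 0.09 and Decr1 by 0.52 ± 0.10 and 0.44 ± 0.10 (CMC before pemafibrate). Acads fell by 0.47 ± 0.09 and 0.46 ± 0.09 and Hadh by 0.43 ± 0.10 and 0.45 ± 0.10. Acad10 fell by 0.56 ± 0.11 and 0.36 ± 0.11, the latter lost without Ad-CTRL Pema replicate 2 (adjusted p = 0.0517). Acad11 fell by 0.35 ± 0.12 and 0.51 ± 0.12, the former lost in 4 of 16 fits with a library left out, at most at adjusted p = 0.103 without Ad-FAT10 CMC replicate 4. Etfa fell by 0.55 ± 0.11 and 0.36 ± 0.11 (the latter at adjusted p = 0.0542 without Ad-FAT10 Pema replicate 3). Etfdh fell by 0.42 ± 0.13 and 0.68 ± 0.13 (the former at adjusted p = 0.0509 without Ad-FAT10 CMC replicate 4), and Etfb by 0.77 ± 0.18 under CMC. Etfb was at -0.36 ± 0.17 under pemafibrate (adjusted p = 0.0969), though called at 0.0144 when Ad-CTRL Pema replicate 3 was left out. Of these genes Eci1 and Acaa2 were called in both treatments, Echs1 and Acad10 under CMC, and Etfdh under pemafibrate, with library totals alone too; the rest were not called in that treatment.

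Oxct1, Slc16a6 and Ucp2 were higher in Ad-FAT10 livers in both treatments and with either scaling. Oxct1 rose by 0.86 ± 0.19 under CMC and 1.17 ± 0.19 under pemafibrate (adjusted p = 0.00178 and 0.000144), with all Ad-FAT10 libraries above all Ad-CTRL libraries. Slc16a6 rose by 0.79 ± 0.19 and 0.62 ± 0.19 (adjusted p = 0.0028 and 0.0134) and Ucp2 by 0.96 ± 0.16 and 0.61 ± 0.16 (adjusted p = 0.000201 and 0.00574), both without overlap. Bdh1 was lower by 0.47 ± 0.11 and 0.34 ± 0.11, the latter lost without Ad-CTRL Pema replicate 3 (adjusted p = 0.0677) or Ad-FAT10 Pema replicate 4 (0.0573) and turned to 0.02 with library totals alone. The fall of Bdh1 under CMC was not called with library totals alone either. Bdh2 fell under CMC by 0.89 ± 0.20 (adjusted p = 0.00208) and was at -0.45 ± 0.21 under pemafibrate (adjusted p = 0.0966, but 0.000346 at -0.80 without Ad-FAT10 Pema replicate 1). Slc16a1 was at 0.15 ± 0.10 and -0.20 ± 0.10 and was not called, but with library totals alone it was called under CMC at 0.45. Acsl3 was at -0.09 ± 0.14 and -0.17 ± 0.14 and Cpt1b at 0.63 ± 0.74 and -0.01 ± 0.38, none of them called, and Ucp3 under pemafibrate was at -0.90 ± 0.46 (adjusted p = 0.124), though called at 0.0288 when Ad-CTRL Pema replicate 2 was left out.

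Markers of other cell types moved with the adenovirus, beside 42.6% and 41.7% of all genes called under CMC and pemafibrate. The marker calls rest on TMM scaling, and with library totals alone the median of all genes moved up by 0.29 and 0.36. The 6 T and NK cell markers summed to 15.7 ± 6.09 and 16.04 ± 3.14 CPM in Ad-CTRL and 43.1 ± 6.81 and 43.2 ± 15.5 CPM in Ad-FAT10 livers (CMC before Pema, SD, n = 4), and 5 of 6 were called higher in each treatment, Cd3e by 1.85 ± 0.30 and 1.67 ± 0.28. Neutrophil markers summed to 10.8 ± 3.47 and 7.93 ± 1.54 CPM in Ad-CTRL and 57.8 ± 26.8 and 21.1 ± 3.24 CPM in Ad-FAT10 livers, and all 5 tested of 6 were higher in both treatments, S100a8 by 3.16 ± 0.43 and 1.65 ± 0.46. Macrophage markers divided, 2 of 6 higher and 3 lower in each treatment, with Clec4f of Kupffer cells at -2.89 ± 0.32 and -3.19 ± 0.32. The 6 skeletal muscle markers summed to 0.124 ± 0.0175 and 0.101 ± 0.0620 CPM in Ad-CTRL and 0.364 ± 0.269 and 1.05 ± 0.398 CPM in Ad-FAT10 livers, and the 1 that could be tested, Acta1, rose in both treatments (adjusted p = 0.0267 and 0.000264). Markers of B cells were lower in 4 and 3 of 4, of endothelial cells in 3 and 3 of 5 and of stellate cells in 3 and 2 of 5 cases, 1 stellate marker being higher under pemafibrate, and 1 and 0 of 4 cholangiocyte markers were higher. Hepatocyte markers were lower in 5 of 6 cases in each treatment, Alb at -0.65 ± 0.19 and -0.67 ± 0.19, and their sum was 93228 ± 11800 and 81498 ± 11700 CPM in Ad-CTRL and 56730 ± 4010 and 48908 ± 8510 CPM in Ad-FAT10 livers. In bulk liver, fewer cells of a type and less RNA per cell cannot be told apart, and the part of these shifts in the changes of Ucp2, Oxct1, Slc16a6 or the genes that fell was not tested.

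With the drug, marker shifts were fewer, beside 30.6% and 25.4% of all genes called in Ad-CTRL and Ad-FAT10 livers. In Ad-CTRL livers 3 of 6 hepatocyte markers fell and no tested marker of the other 8 types measured was called. In Ad-FAT10 livers 3 of 6 hepatocyte markers fell, all 5 tested neutrophil markers fell, S100a8 by 1.99 ± 0.39, and the muscle actin gene Acta1 rose by 1.64 ± 0.53 (adjusted p = 0.0302). No adipocyte marker had enough counts to be tested. The drug rises of the 35 genes stand beside the hepatocyte marker sums given above, which were lower under Pema in both adenoviruses with overlapping libraries, and the part of that shift was not tested.

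Whether the drug response itself differed between the adenoviruses was asked with the interaction, the change in Ad-FAT10 livers minus that in Ad-CTRL livers. Of the 35 genes 0 were called, against 0.156% of all genes, and DESeq2 called none of them either. At an unadjusted p under 0.05 there were 3 of the 35, against 10.8% of all genes. These were Mlycd at 0.43 ± 0.14 (95% interval 0.13 to 0.72), whose drug rise was larger in Ad-FAT10 livers, and Acsl4 at -0.36 ± 0.14 (-0.65 to -0.06) and Slc16a1 at -0.36 ± 0.15 (-0.67 to -0.05), whose rises were smaller. The smallest adjusted p among the 35 was 0.278. For 32 of the genes the 95% interval lay within 1 log2 unit of 0, and differences in response smaller than these intervals could not be resolved. Apart from Mlycd, Acsl4 and Slc16a1, every gene had an interval that included 0. Examples with estimates near 0 were Acadm at 0.05 ± 0.14 (-0.25 to 0.36), Hadh at -0.02 ± 0.14 (-0.32 to 0.28) and Eci1 at 0.02 ± 0.14 (-0.29 to 0.32). Cpt1a was at -0.27 ± 0.19 (-0.66 to 0.12), and the difference behind its call in Ad-CTRL and not in Ad-FAT10 livers was not called (adjusted p = 0.636).

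**Figure D5:**
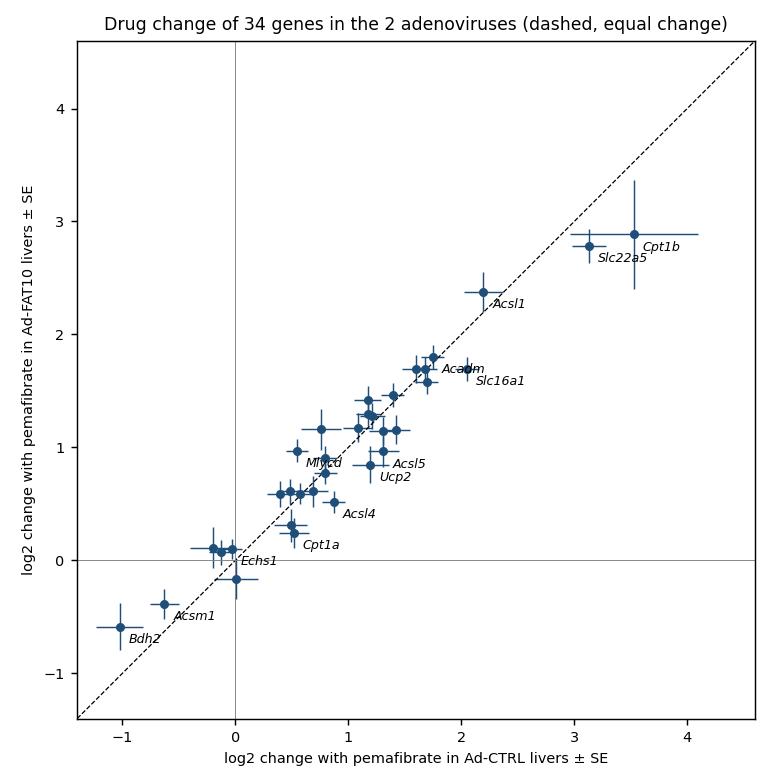
Log2 change with pemafibrate in Ad-CTRL livers (x axis) and in Ad-FAT10 livers (y axis) for 34 of the genes, each with its SE (n = 4 mice per group), with a dashed line of equal change. The 2 axes share no library. The points follow the line, Mlycd above it and Acsl4 and Slc16a1 below it, with no called difference. Cpt1b passed the filter on low counts only through the Pema groups, so its high place on both axes was set by the filter and is a description.

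Genes of the pathway outside the 35 were counted from 4 lists, to be read against the 30.6% and 25.4% of all genes called for the drug in Ad-CTRL and Ad-FAT10 livers and the 42.6% and 41.7% called for the adenovirus under CMC and pemafibrate. Of 24 other genes of mitochondrial fatty acid and branched-chain oxidation 22 could be tested, and 8 rose and 3 fell with the drug in Ad-CTRL and 9 rose and 2 fell in Ad-FAT10 livers, with medians of 0.14 and 0.20 (50% called in each). Slc25a20, the carnitine-acylcarnitine translocase, rose by 1.50 ± 0.11 and 1.54 ± 0.11, the dienoyl-CoA isomerase Ech1 by 1.21 ± 0.11 and 1.37 ± 0.11, Eci2 by 1.11 ± 0.10 and 1.23 ± 0.10 and the acyl-CoA binding protein Dbi by 1.16 ± 0.11 and 1.24 ± 0.11. With Ad-FAT10, 11 were lower and 2 higher under CMC (59.1%) and 12 lower and 2 higher under pemafibrate (63.6%), among them Dbi at -0.80 ± 0.10 and -0.72 ± 0.10 and Pccb, a subunit of propionyl-CoA carboxylase, at -0.64 ± 0.09 and -0.59 ± 0.09. Ivd, of leucine breakdown, was at -0.63 ± 0.09 under CMC, and Acss1, a mitochondrial acetyl-CoA synthetase, was higher by 1.69 ± 0.26 under pemafibrate.

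Of 8 other ketone body genes 6 could be tested, and 3 rose with the drug in each adenovirus (50%) and 0 fell. With Ad-FAT10, 3 were lower and 1 higher under CMC (66.7%) and 4 lower and 1 higher under pemafibrate (83.3%). The 1 that was higher was Slc16a3, a lactate exporter, which rose from 1.09 ± 0.465 to 7.36 ± 0.933 CPM under CMC and from 1.47 ± 0.341 to 7.22 ± 3.80 CPM under pemafibrate (changes of 2.77 ± 0.33 and 2.31 ± 0.31). Among 15 regulators 6 rose and 3 fell with the drug in Ad-CTRL (60%) and 3 rose and 3 fell in Ad-FAT10 livers (40%). Lpin1 and Ppara, singled out after their values were seen, stood at -1.98 ± 0.30 and -1.25 ± 0.29 for the coactivator lipin 1 and at 0.60 ± 0.16 and 0.27 ± 0.16 for PPARα itself, the last not called (adjusted p = 0.248). With Ad-FAT10, 2 regulators were higher and 1 lower under CMC (20%), and 2 higher and 4 lower under pemafibrate (40%), shares at or below those of all genes. Among 12 genes of general mitochondrial content 6 rose under the drug with Ad-CTRL (50%) and 9 with Ad-FAT10 (75%), with medians of 0.28 and 0.39. These were smaller than the medians of 0.87 and 0.96 over the 33 members left without Ucp3 and Cpt1b. With Ad-FAT10, 5 of these 12 were lower under CMC (41.7%), and 1 was lower and 1 higher under pemafibrate (16.7%), shares at or below those of all genes.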

How the data were processed

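Poly(A) RNA from 16 mouse livers, 4 mice in each of 4 groups named by the sample titles, was sequenced on a DNBSEQ instrument with dUTP-marked libraries, per the labels' protocols. The authors deposited raw read counts per Ensembl gene, 1 file per library. GRCm39 is the build, and STAR (2.7.6) and DESeq2 (1.36.0 and 2.11.40.6) the tools, per the submitters' processing notes. Not given in the sources used here are the counting program, its strand setting and the annotation release. Symbols were matched for 52083 of 55416 gene IDs through GENCODE M21 (GRCm38), which also gave exon lengths and overlaps, and promoters came from RefSeq (GRCm38.p6). No coordinates were converted.

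Genes were filtered with filterByExpr over the 4 groups, leaving 14770, scaled with TMM and fitted in 1 model of 16 libraries with edgeR 4.0.16 (glmQLFit and glmQLFTest, R 4.3.3), with Benjamini-Hochberg adjustment over all of them. The SE is the absolute log2 change divided by the square root of F. Ratios of few counts carry exact binomial intervals, which cover counting error only. The comparisons were the drug in each adenovirus, the adenovirus in each treatment, and their interaction. No labels tie mice to shared litters or days, so p-values measure the spread between these mice. No pair of replicates was identical (24 pairs, chi-square per gene at least 14.5), and the tests were checked on simulated counts.

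All 35 genes are named. Values per library are given for 19 of them, namely the 4 largest called rises and falls in each comparison of groups and Cpt1a, Acsl1, Acadm, Hadha, Bdh1 and Slc16a1, and for other pathway genes the 4 with the smallest p in each comparison are named. The members, lists and tests were chosen with earlier results of these data known. Alternatives were DESeq2 1.42.0, its size factors, no filter, scaling without mitochondrially encoded and the 10 most abundant genes, only the 2 groups compared, a replicate block and leaving out each library, and, chosen after seeing the data, library totals alone.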

Additional observations from a re-analysis of the deposited data

Results flagged for a closer look

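Among 140 sets of 4 libraries (35 genes in 4 groups), 3 held a library far from the other 3 by Dixon's test, which chance alone does in about 1 in 20 sets. Cpt2 in Ad-FAT10 CMC was at 112.5 CPM in replicate 2 and between 139.2 and 144 CPM in the others. Etfa in Ad-CTRL CMC was at 288 CPM in replicate 4 and between 390.6 and 406.9 CPM in the others. Ucp3 in Ad-CTRL CMC was at 0.0587 CPM, a single count, in replicate 1 and at 0 in the others.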

How the results depend on the processing

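Library totals alone, chosen after seeing the data, changed the adenovirus comparisons most: 14 of the 35 genes were then called under CMC and 13 under pemafibrate, in place of 24 and 22. With them the change turned to 0.27 for Acadvl (adjusted p = 0.0392) and 0.02 for Acadm under CMC, and under pemafibrate to 0.34 for Acsl4, 0.32 for Acadl, 0.0051 for Acad10, 0.08 for Hadhb and 0.0218 for Bdh1. Of the drug calls they lost Etfa in Ad-CTRL livers (0.31, adjusted p = 0.0505). The interaction was called for 23 of all genes by edgeR, for 93 without the filter and for 120 by DESeq2, with 0 of the 35 in each. Leaving out 1 library gave 31 to 31 and 27 to 29 members called for the drug in Ad-CTRL and Ad-FAT10 livers, 20 to 25 and 20 to 23 for the adenovirus under CMC and pemafibrate, and 0 to 0 for the interaction. Over all genes it gave 3753 to 4791 and 2988 to 3863 calls for the drug, 5335 to 6616 and 5231 to 6427 for the adenovirus, and 11 to 36 for the interaction. Same-numbered replicates share only a number: the correlations of their deviations ran from -0.172 to 0.172 over 24 pairs. With the replicate block 31, 29, 23 and 22 members were called in the 4 comparisons in the order above, the only call that differed being Acadm under CMC (adjusted p = 0.0614), and 16 of all genes for the interaction; scaling without mitochondrially encoded and the 10 most abundant genes gave 33. At these depths Ucp3 and Cpt1b rest on few counts in CMC livers. The cause of these differences was not tested.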
